A study of Mus musculus with 12 samples.

Results

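The 8 genes described here encode the Zfp36, Regnase and Roquin families of RNA-binding proteins, which shorten the life of cytokine mRNAs. They are Zfp36, Zfp36l1, Zfp36l2, Zc3h12a, Zc3h12c, Zc3h12d, Rc3h1 and Rc3h2. They were chosen by name for this role, with earlier results of these data known. Each symbol matched 1 of the 55487 features in the expression table. All 8 were among the 12364 genes that passed a filter on low values and were tested. The filter asked for a log2 level above 0 in at least 4 samples. Zc3h12c was below that minimum in every unstimulated sample, and Zc3h12d in every sample of the reporter-positive group. Each passed only through the groups where it was higher, so its differences from the low group are given as descriptions. Zc3h12c was above the minimum in every reporter-positive sample but not in every reporter-negative one. Its difference between these groups is therefore given as a description too.

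RNA was sequenced from mouse natural killer (NK) cells, lymphocytes that kill target cells and secrete cytokines. Every group came from the strain labelled B6.129S4-Ifngtm3.1Lky/J with the genotype mut/mut, in which a yellow fluorescent protein (YFP) reports on the interferon gamma gene Ifng, and every group was primed with IL-15 (given in the labels as HD IL-15). The unstimulated group had 4 samples with no time given. The other 8 samples were cells given anti-NK1.1, which engages an activating receptor of NK cells, for 6 h and then sorted on the reporter into 4 samples without YFP (YFP-) and 4 with YFP (YFP+). The labels give no age, and they do not say whether the replicate labels f2, m2, m3 and m4, which recur in each group, are separate mice or cultures. The p-values below therefore measure the spread between these samples, which may be technical. All groups share the allele and the priming, so the effect of neither can be read from these data.

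The 12 libraries held 32.1 M to 54.2 M counted reads (M, 1000000 reads). A level is given in CPM, the read count scaled to 1000000 counted reads, and 3 reads corresponded to 0.0553 to 0.0933 CPM depending on the library. Features resembling ribosomal RNA took 13.7 to 35.3% of the reads, with a mean of 30.7% ± 3.4 in the unstimulated group, 21.2% ± 6.3 in the YFP- group and 20.7% ± 7.2 in the YFP+ group (SD, n = 4 each). Ifng itself averaged 3.92 ± 0.24 CPM without stimulation, 45.8 ± 7.4 in the YFP- group and 329.2 ± 18.2 in the YFP+ group (SD, n = 4 each), so the reporter sort and the Ifng transcript went the same way. The summed level of 10 NK cell markers was 14380 to 17110 CPM without stimulation, 10960 to 14170 CPM in the YFP- group and 10670 to 15800 CPM in the YFP+ group. Every YFP- sample was thus below every unstimulated one, and the YFP+ range overlapped both. Gzma, the highest of these markers, averaged 8603, 4483 and 4412 CPM in the same order. The part of this in the differences below was not tested. Sums for 7 T cell markers ran from 52.8 to 112 CPM without separating the groups. The sum of 6 B cell markers, mostly Ighm, was 131 to 189 CPM without stimulation, 174 to 324 CPM in the YFP- group and 57.1 to 168 CPM in the YFP+ group, so every YFP+ sample was below every YFP- sample. At least 4 of the 6 averaged below 1 CPM in each group. That order of the stimulated groups also holds for Zfp36, Zfp36l1, Zfp36l2, Zc3h12a and Zc3h12d below. The part of these B cell marker reads in their differences was not tested. The sum of 6 dendritic cell markers was 121 to 143 CPM without stimulation, 62.6 to 83.3 CPM in the YFP- group and 30.9 to 36.2 CPM in the YFP+ group. It came mainly from H2-Ab1 and Itgax, while 3 of the 6 were below 1 CPM in each group and Siglech had no read in unstimulated or YFP+ samples. This dendritic marker order is also that of Zfp36 and Zfp36l2 below, and its part in their differences was not tested. In bulk samples, a lower level can mean fewer cells with the transcript or less RNA per cell, and these cannot be told apart.

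As background, cytokine mRNAs carry elements in their 3′ untranslated regions (UTRs) that mark them for rapid decay. Proteins of the Zfp36 family bind AU-rich elements through a pair of zinc fingers and recruit the CCR4-NOT deadenylase, which removes the poly(A) tail. Regnases are endonucleases that cut at stem-loops, and Roquins bind stem-loops through their ROQ domain and also recruit CCR4-NOT. In lymphocytes several of these proteins are known as brakes on cytokine output, and their own mRNAs are often targets of the same families.

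The AU-rich nonamer TTATTTATT, the sequence that Zfp36 proteins prefer, occurred once in the annotated 3′ UTR of 5 of the 8 genes (GENCODE M21 transcripts, GRCm38). It is shown in capitals with 10 bases on each side, 5′ to 3′ on the transcript strand. The nonamer is a stretch of these mRNAs that the Zfp36 proteins themselves could read.
Zfp36, chr7:28376951-28376979, minus strand: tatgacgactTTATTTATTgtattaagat
Zfp36l1, chr12:80108167-80108195, minus strand: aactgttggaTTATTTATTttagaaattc
Zfp36l2, chr17:84184914-84184942, minus strand: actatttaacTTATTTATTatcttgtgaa
Rc3h1, chr1:160970043-160970071, plus strand: actttactcaTTATTTATTgagatgagga
Rc3h2, chr2:37373287-37373315, minus strand: caaagacattTTATTTATTttactctgta
Csf2, chr11:54247321-54247349, minus strand: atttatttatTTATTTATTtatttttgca
Csf2, which encodes the cytokine GM-CSF, is no member and is shown for comparison. Its UTR held 4 overlapping matches, of which 1 is printed, and that of Tnf held 5, whereas each of the 5 decay factor genes had a lone match. The UTRs of Zc3h12a, Zc3h12c and Zc3h12d had no match to these letters, and neither did that of Ifng. Among tested genes with a UTR within 20% of the same length, a match was present in 4.56% for Zfp36, 7.96% for Zfp36l1, 8.01% for Zfp36l2, 26.8% for Rc3h1 and 19.9% for Rc3h2. The shorter pentamer ATTTA occurred 3 times in Zfp36, 9 times in Zfp36l1 and 5 times in Zfp36l2, against a median of 1, 3 and 3 in UTRs of like length. It was above that median in Zc3h12a (3 against 1), Zc3h12c (14 against 6), Rc3h1 (20 against 13) and Rc3h2 (25 against 9) too, and below it in Zc3h12d (2 against 4). A match describes the letters and not a site in use.

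Members of the Zfp36 family moved in opposite directions after stimulation. Zfp36 and Zfp36l2 fell in both stimulated groups, and Zfp36l1 rose in both. Between the stimulated groups, all 3 were lower in YFP+ than in YFP- cells.

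Zfp36 encodes tristetraprolin, the founding AU-rich element binding protein (chromosome 7, 28376784 to 28380253, GRCm38, minus strand). Its level in the samples f2, m2, m3 and m4, the order kept throughout, was 105, 119, 93.5 and 104 CPM in unstimulated cells. It was 79.0, 71.6, 46.9 and 48.8 CPM in YFP- cells and 30.8, 27.4, 17.3 and 19.0 CPM in YFP+ cells. The 3 groups did not overlap: every YFP+ sample lay below every YFP- sample, and every YFP- sample below every unstimulated one. The log2 difference was -0.81 (SE 0.21, limma adjusted p = 0.0061) for YFP- against unstimulated. It was -2.19 (SE 0.21, limma adjusted p = 1.06e-06) for YFP+ against unstimulated, a fall to 0.219 of the unstimulated level. Between YFP+ and YFP- it was -1.38 (SE 0.21, limma adjusted p = 0.00049). Within each stimulated group, f2 and m2 were well above m3 and m4. In the YFP+ group the m3 and m4 libraries also held fewer reads, 36.2 M and 32.1 M against 48.9 M and 54.2 M in f2 and m2, and larger ribosomal RNA-like shares, 29.8 and 23.1% against 13.7 and 16.3%. In the YFP- group m3 and m4 held 43.4 M and 49.0 M reads against 44.3 M and 49.3 M in f2 and m2, with shares of 30.3 and 20.0% against 18.7 and 15.9%. The part of depth and of these shares in the spread was not tested. The first of the 3 differences missed the threshold without label m4 (log2 difference -0.71, limma adjusted p = 0.051) and without the filter on low values (limma adjusted p = 0.055).

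Zfp36l2, a paralogue that also promotes mRNA decay and is linked to quiescence in lymphocytes (chromosome 17, 84183931 to 84187947, minus strand), was at 59.1, 60.8, 59.1 and 64.6 CPM in unstimulated cells. In YFP- cells it was at 25.7, 23.7, 21.2 and 16.9 CPM, and in YFP+ cells at 9.38, 11.9, 13.7 and 15.1 CPM. The unstimulated samples lay close together and far above the rest, and the YFP- and YFP+ ranges did not overlap, although their nearest samples were 16.9 and 15.1 CPM, both m4. The log2 difference from unstimulated was -1.50 (SE 0.17, limma adjusted p = 8.9e-06) in YFP- and -2.30 (SE 0.17, limma adjusted p = 7.3e-08) in YFP+ cells. YFP+ cells were lower than YFP- cells by a log2 difference of -0.81 (SE 0.17, limma adjusted p = 0.0036).

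Zfp36l1, the third paralogue, which destabilizes AU-rich mRNAs in developing and activated lymphocytes (chromosome 12, 80107754 to 80113013, minus strand), went the other way. It was at 42.8, 41.4, 46.4 and 45.4 CPM in unstimulated cells, 179, 142, 110 and 161 CPM in YFP- and 94.8, 80.2, 67.6 and 97.2 CPM in YFP+ cells. Every stimulated sample was above every unstimulated one, and every YFP- sample above every YFP+ one. The log2 difference from unstimulated was 1.73 (SE 0.16, limma adjusted p = 1.96e-06) in YFP- and 0.94 (SE 0.16, limma adjusted p = 0.00017) in YFP+ cells. Against YFP- cells, the YFP+ value was -0.79 (SE 0.16, limma adjusted p = 0.0031). The annotation places a long non-coding RNA, Gm26669, on the opposite strand over 1672 exonic bases of Zfp36l1, and no strand setting is given in the sources used here, so reads of the 2 could not be told apart. Smaller overlaps of 125 bases in Zfp36, 105 in Zfp36l2 and 117 in Zc3h12c carry the same limit. The remaining family gene, Zfp36l3, had no read in any of the 12 libraries.

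**Figure D1:**
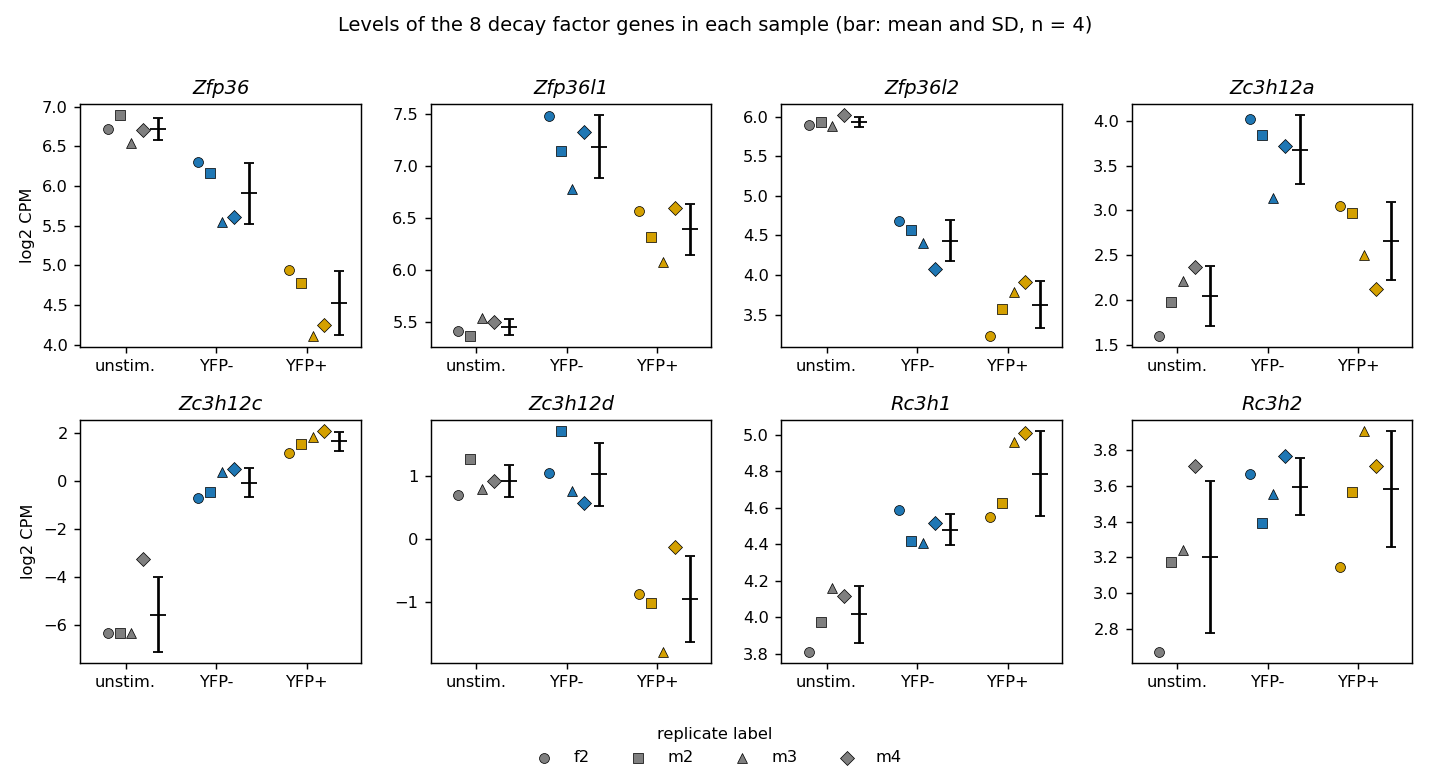
Level of each gene (log2 CPM, a separate vertical range in each panel) in the 4 unstimulated, 4 YFP- and 4 YFP+ samples. Symbols are replicate labels, and black bars give the group mean and SD (n = 4). Zfp36 and Zfp36l2 step down from unstimulated to YFP- to YFP+, Zfp36l1 and Zc3h12a peak in YFP-, and Zc3h12c and Rc3h1 have their highest mean in YFP+. The 3 lowest Zc3h12c points are libraries with no read.

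Genes can be set against each other only per length, so each CPM was divided by the kilobases of all annotated exons of the gene. This divisor pools the exons of every annotated transcript, and for Zfp36 it was 3.47 kb, the whole span of the gene. Levels, shares and ratios per length depend on it, and a divisor from a shorter transcript would raise them for that gene. On that scale Zfp36 was the most abundant of the 8 transcripts in unstimulated cells, at 30.4 ± 3.0 CPM per kb, ahead of Zfp36l2 at 17.3 ± 0.7 and Zfp36l1 at 14.7 ± 0.8 (SD, n = 4 each). None of these neighbouring ranges overlapped. In YFP- cells Zfp36l1 was first at 49.5 ± 9.9 CPM per kb, with Zfp36 at 17.7 ± 4.7 and Zfp36l2 at 6.19 ± 1.07. In YFP+ cells the order was the same, at 28.4 ± 4.6, 6.81 ± 1.88 and 3.55 ± 0.70 CPM per kb, again without overlap.

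The makeup of the family differed between the groups. Zfp36 supplied 48.7% ± 3.0 of the summed per-length level in unstimulated cells, 24.1% ± 3.5 in YFP- and 17.5% ± 3.8 in YFP+ cells (SD, n = 4 each). Zfp36l1 supplied 23.7% ± 2.1, then 67.4% ± 4.6 and 73.1% ± 2.8. The share of Zfp36l2 was 27.7% ± 1.1, then 8.57% ± 1.71 and 9.37% ± 2.59. The sum over the 3 genes was 62.4 ± 2.6 CPM per kb in unstimulated and 73.4 ± 13.8 in YFP- samples, whose ranges overlapped, and 38.8 ± 5.4 in YFP+ samples, all of which lay below every sample of the other groups. A ratio taken within a sample does not depend on how the library was scaled. The per-length log2 ratio of Zfp36 to Zfp36l1 was 1.04 ± 0.21 without stimulation, -1.50 ± 0.31 in the YFP- group and -2.09 ± 0.37 in the YFP+ group. That of Zfp36l2 to Zfp36l1 was 0.23 ± 0.09, then -2.99 ± 0.38 and -3.01 ± 0.43, so for this pair the means of the stimulated groups differed by less than their SDs.

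**Figure D2:**
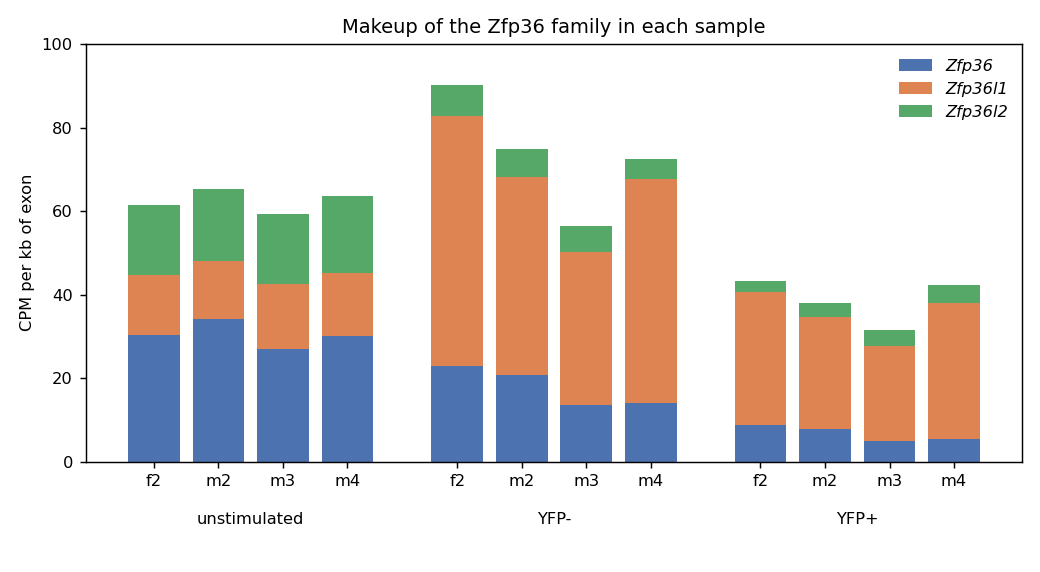
Summed per-length level of the 3 Zfp36 family genes (CPM per kb of exon) in each of the 12 samples, with each gene's part stacked. Zfp36 makes up the largest part of each unstimulated bar, Zfp36l1 that of each YFP- and YFP+ bar, and the YFP+ bars, at 31.5 to 43.2, are the lowest.

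The promoters were read because Zfp36 and Zfp36l1, paralogues of 1 family, moved in opposite directions. RefSeq windows from 250 bases before to 50 bases after the start (GRCm38.p6) were found for 7 of the 8 genes, all but Zfp36l2, so within the Zfp36 family Zfp36 and Zfp36l1 could be set side by side. Both strands were searched for the AP-1 element TGANTCA, the CRE TGACGTCA, the EGR element GCGNGGGCG, the CArG box of serum response factor and the NF-kappaB site. For the background, the windows of a chromosome that holds none of the 8 genes were left out. Of the remaining 32851 windows of this length, 7.81% held the AP-1 element, 1.79% the CRE, 5.55% the EGR element, 1.63% the CArG box and 4.51% the NF-kappaB site. The windows of Zfp36, Zfp36l1 and Rc3h1 held a match, and 100 bases around each are shown, 5′ to 3′ on the gene's strand, with matches in capitals.
Zfp36, chr7:28379249-28379348, minus strand: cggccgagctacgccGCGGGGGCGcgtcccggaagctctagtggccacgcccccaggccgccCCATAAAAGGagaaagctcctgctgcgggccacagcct
Zfp36l1, chr12:80113054-80113153, minus strand: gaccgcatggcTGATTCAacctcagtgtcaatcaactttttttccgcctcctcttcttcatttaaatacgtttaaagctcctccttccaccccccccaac
Rc3h1, chr1:160906259-160906358, plus strand: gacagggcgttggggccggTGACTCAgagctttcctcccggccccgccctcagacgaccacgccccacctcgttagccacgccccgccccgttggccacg
In Zfp36 the EGR match spans bases -105 to -97 from the start and the CArG match, which reads on both strands, bases -58 to -49. The capitals in Zfp36l1 (bases -129 to -123) and Rc3h1 (bases -133 to -127) are AP-1 matches, each reading on both strands, and no match overlapped another motif. The windows of Zc3h12a, Zc3h12c, Zc3h12d and Rc3h2 held none of these letters. The matches describe the sequence alone, since binding was not measured.

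The 3 Regnase genes each had a different course. Zc3h12a rose in both stimulated groups and was higher in YFP- than in YFP+ cells, Zc3h12c appeared with stimulation, and Zc3h12d was lowest in YFP+ cells.

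Zc3h12a encodes Regnase-1, an endonuclease that cuts inflammatory mRNAs and is itself cleaved by the protease Malt1 after antigen receptor signals (chromosome 4, 125118423 to 125127840, minus strand). It was at 3.02, 3.92, 4.62 and 5.15 CPM in unstimulated cells, 16.2, 14.3, 8.78 and 13.1 CPM in YFP- and 8.24, 7.82, 5.66 and 4.32 CPM in YFP+ cells. The YFP- samples lay above all others, while the YFP+ and unstimulated ranges overlapped, with the YFP+ sample m4 below its unstimulated counterpart. The log2 difference was 1.64 (SE 0.25, limma adjusted p = 0.00013) for YFP- against unstimulated. For YFP+ against unstimulated it was 0.62 (SE 0.25, 95% interval 0.08 to 1.16, limma adjusted p = 0.046). That call was lost under 9 of the alternative analyses, including those without label f2 (0.35, limma adjusted p = 0.29) or m2 (0.50, limma adjusted p = 0.21). YFP+ was below YFP- by a log2 difference of -1.02 (SE 0.25, limma adjusted p = 0.011), which missed the threshold without label m2 (limma adjusted p = 0.0503), without m4 (limma adjusted p = 0.077) and without the filter (limma adjusted p = 0.086).

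Zc3h12c encodes Regnase-3, a related endonuclease best known from macrophages (chromosome 9, 52111344 to 52168572, minus strand). The summed level of 7 myeloid markers was at most 3.18 CPM in any sample and S100a9 had no read in any group, so the markers of those cells were near 0 here. In unstimulated cells Zc3h12c had no read in f2, m2 and m3 and 3 reads (0.092 CPM) in m4. It reached 0.587, 0.709, 1.29 and 1.41 CPM in YFP- cells and 2.19, 2.88, 3.56 and 4.14 CPM in YFP+ cells. The 3 groups did not overlap, and the values rested on 186 reads in the YFP- and 525 reads in the YFP+ group. Over pooled reads the ratio to unstimulated was 49.5 (exact 95% interval 16.7 to 242) in YFP- and 151 (51.5 to 737) in YFP+ cells, where the intervals cover counting error only. The fitted log2 differences of 5.49 and 7.21 (SE 0.65 each) depend on the small count added before the logarithm, and with log2(CPM + 1) they were 0.94 and 2.01. Their p-values are not given, because no unstimulated sample was above the filter's minimum.

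Between YFP+ and YFP- cells the log2 difference of Zc3h12c was 1.72 (SE 0.65, 95% interval 0.31 to 3.13) and was not called. All YFP+ samples were above the filter's minimum, but of the YFP- samples only m3 and m4 were. The gene thus passed the filter through the YFP+ group, and the difference is given without a p. Zc3h12c was higher in YFP+ cells for 4 of 4 labels. The shared estimate of its spread includes the unstimulated samples, whose log2 values varied most (SD 1.55, against 0.62 and 0.40). The difference passed under 7 alternatives, among them the fit to the 8 stimulated samples alone, log2(CPM + 1) and the fit without label m4. Over all alternatives that gave a value it ranged from 1.07 to 2.28, so whether it was called depended on the setting.

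Zc3h12d encodes Regnase-4, also called TFL, a family member expressed in lymphocytes (chromosome 10, 7832470 to 7870396, plus strand). Its level was 1.60, 2.39, 1.71 and 1.88 CPM in unstimulated cells, 2.05, 3.24, 1.68 and 1.47 CPM in YFP- and 0.531, 0.479, 0.276 and 0.902 CPM in YFP+ cells. The unstimulated and YFP- samples overlapped, and every YFP+ sample lay below all of them. The log2 difference for YFP- against unstimulated was 0.10 (SE 0.35, 95% interval -0.65 to 0.86, limma adjusted p = 0.82), and its sign turned under 4 alternatives. For YFP+ it was -1.87 against unstimulated and -1.98 against YFP- (SE 0.35 each), given without a p because no YFP+ sample was above the filter's minimum. YFP+ libraries held 10 to 29 reads of this gene, so its counting error is large.

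Per length, Zc3h12a was the largest of the Regnases in every group, at 1.45 ± 0.32 CPM per kb in unstimulated, 4.55 ± 1.09 in YFP- and 2.26 ± 0.64 in YFP+ cells. The family sum was 1.92 ± 0.35, then 5.21 ± 1.14 and 2.86 ± 0.49 CPM per kb (SD, n = 4 each). Zc3h12c made up 0.15% of that sum on average in unstimulated, 3.08% ± 1.81 in YFP- and 17.2% ± 7.4 in YFP+ cells, and Zc3h12d 24.6% ± 4.8, 9.98% ± 2.996 and 4.91% ± 3.093. The order of these minor Regnases thus differed between the groups: Zc3h12d was above Zc3h12c without overlap in unstimulated and YFP- cells and below it without overlap in YFP+ cells. Another family gene, Zc3h12b, had 0 to 27 reads per library.

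Of the Roquins, Rc3h1 rose in both stimulated groups and Rc3h2 passed the test in no comparison. Rc3h1 encodes Roquin-1, a ROQ and RING finger protein that binds stem-loops in the mRNAs of costimulatory receptors and cytokines (chromosome 1, 160906418 to 160974978, plus strand). It was at 14.0, 15.7, 17.9 and 17.4 CPM in unstimulated cells, 24.0, 21.3, 21.2 and 22.9 CPM in YFP- and 23.4, 24.7, 31.1 and 32.2 CPM in YFP+ cells. Every stimulated sample was above every unstimulated one, and the stimulated groups overlapped. The log2 difference from unstimulated was 0.46 (SE 0.14, limma adjusted p = 0.013) in YFP- and 0.77 (SE 0.14, limma adjusted p = 0.0003) in YFP+ cells. The YFP- call was lost under all scalings between samples (trimmed mean: 0.32, limma adjusted p = 0.11) and without label f2 (0.36, limma adjusted p = 0.078) or m2 (0.47, limma adjusted p = 0.059), and the YFP+ call held under every alternative run. Between YFP+ and YFP- the difference was 0.30 (SE 0.14, 95% interval 0.00 to 0.61, limma adjusted p = 0.14), which passed with the trimmed mean (0.52, limma adjusted p = 0.03) and with centring on sample medians (0.57, limma adjusted p = 0.027).

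Rc3h2 encodes Roquin-2, a paralogue whose function overlaps that of Roquin-1 (chromosome 2, 37370069 to 37422903, minus strand). It was at 6.37, 9.02, 9.46 and 13.1 CPM in unstimulated cells, 12.7, 10.5, 11.8 and 13.6 CPM in YFP- and 8.83, 11.8, 14.9 and 13.1 CPM in YFP+ cells. All 3 groups overlapped, with the unstimulated samples the most spread out. No difference passed: the log2 difference was 0.39 for YFP- against unstimulated (95% interval -0.07 to 0.86, limma adjusted p = 0.14), 0.38 for YFP+ against unstimulated (-0.08 to 0.84, limma adjusted p = 0.14) and -0.01 for YFP+ against YFP- (-0.48 to 0.45, limma adjusted p = 0.97). Per length, Rc3h1 was at 1.44 ± 0.15, 1.98 ± 0.12 and 2.46 ± 0.39 CPM per kb and Rc3h2 at 0.483 ± 0.140, 0.618 ± 0.067 and 0.62 ± 0.13 (SD, n = 4 each). Rc3h1 exceeded Rc3h2 in each of the 12 samples. Its ranges overlapped those of Zc3h12a in unstimulated and YFP+ cells, so the order of these neighbours was not separated there, whereas in YFP- cells Zc3h12a was higher.

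Counted together, 6 of the 8 genes passed the test between YFP- and unstimulated cells, 4 higher and 2 lower. Stimulation changed much of the transcriptome: 51.1% of all tested genes passed, 30.2% higher and 20.9% lower. Between YFP+ and unstimulated cells 7 of 8 passed, 4 higher and 3 lower, where 60.8% of all genes did, 27.5% higher and 33.3% lower. Between YFP+ and YFP- cells 5 of 8 passed, none higher and 5 lower, where 21.8% of all genes did, 3.28% higher and 18.5% lower. The counts include Zc3h12c, higher in both stimulated groups than in unstimulated cells, and Zc3h12d, lower in YFP+ cells than in both other groups. The filter set those directions. So many genes were called against unstimulated cells that the counts alone do not set the 8 genes apart. Without Zc3h12c and Zc3h12d, whose direction the filter set in some comparisons, 5 of 6 genes passed for YFP- against unstimulated (3 higher, 2 lower), 5 of 6 for YFP+ against unstimulated (3 higher, 2 lower) and 4 of 6 for YFP+ against YFP- (all lower). Among the 11338 tested genes that, like these 6, were above the minimum in a sample of every group, the shares were 49.8%, 58.7% and 20.7%. The ranges of the compared groups did not overlap for 6 of the 8 genes in each comparison, and for 52.7%, 54.7% and 22.1% of all tested genes. Without Zc3h12c and Zc3h12d this held for 5, 4 and 4 of 6. The share over the 11338 genes like these 6 was not computed, so these counts have no matching background. The median log2 difference over the 8 genes was 0.43, 0.50 and -0.80 in the same order, against 0.14, -0.03 and -0.19 over all tested genes. The 3 comparisons share samples and are not independent of each other.

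Scaling by a trimmed mean moved the median of all genes from 0.14 to -0.01 for YFP- against unstimulated and from -0.19 to 0.03 for YFP+ against YFP-. In the latter comparison it also changed the split of all calls, from 405 higher and 2286 lower to 1291 higher and 1601 lower. On the trimmed-mean scale the YFP+ against YFP- differences were -1.17 for Zfp36, -0.58 for Zfp36l1, -0.59 for Zfp36l2 and -0.80 for Zc3h12a. These were all still past the threshold (largest limma adjusted p = 0.027). That of Zc3h12d was -1.76, given as a description because no YFP+ sample was above the filter's minimum. With this scaling 6 of the 8 genes passed in that comparison, Zc3h12d counted among them, with Rc3h1 as the only one higher. Of all tested genes 23.4% passed there.

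**Figure D3:**
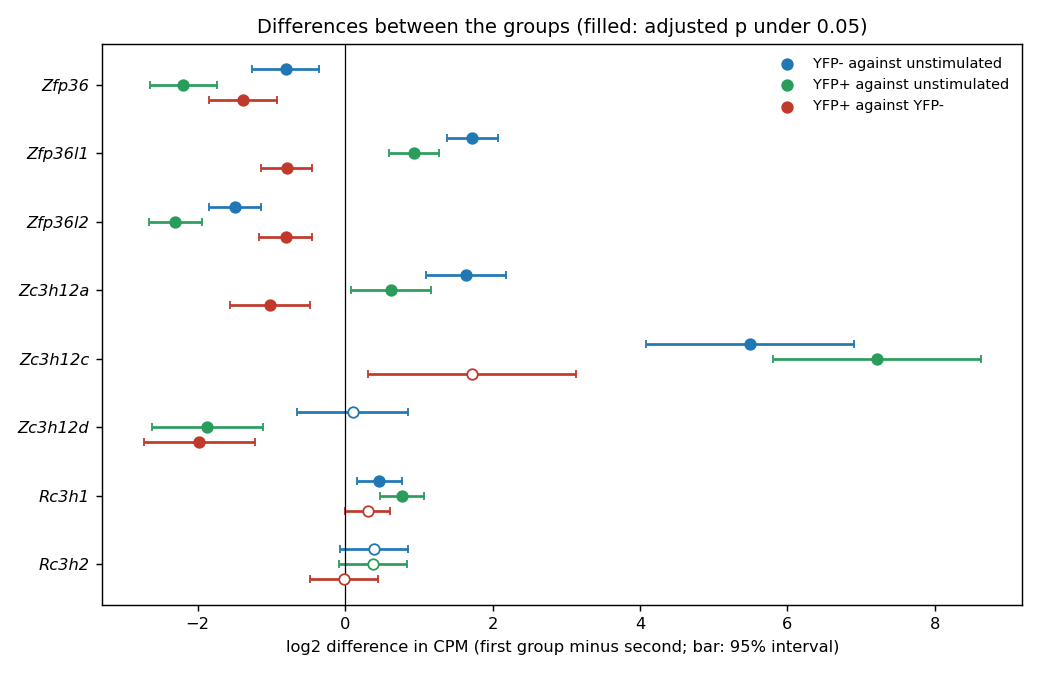
Log2 difference in CPM for the 8 genes in the 3 comparisons, with 95% intervals from the limma fit. Filled points have an adjusted p under 0.05 and open points do not. Zfp36 and Zfp36l2 lie to the left of 0 in each comparison, Zfp36l1 and Zc3h12a lie to the right against unstimulated cells and to the left for YFP+ against YFP-, and the intervals of Rc3h2 include 0 throughout.

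The genes whose log2 levels ran most like each decay factor over the 12 samples were found among 8109 tested genes with a mean log2 CPM of at least 2. For Zfp36 they were Lsp1, Camkmt and Tradd (Pearson r 0.994, 0.993 and 0.993), and for Zfp36l2 Foxm1, Nfatc3 and Xylt2 (r 0.995, 0.993 and 0.992). These too stepped down over the groups: Lsp1 had means of 730.2, 442.2 and 184.7 CPM, and Foxm1 had 21.5, 5.83 and 2.71 CPM. For Zfp36l1 they were Fas, Nfkbiz and Bcl2l11 (r 0.981, 0.974 and 0.974), and Fas had means of 1.58, 20.5 and 5.89 CPM, highest in YFP- cells. For Zc3h12a they were Ddhd2, Zmym5 and Btg2 (r 0.962, 0.952 and 0.942). Zc3h12c ran most like the chemokine genes Xcl1 and Ccl4 and the troponin gene Tnni1 (r 0.979, 0.973 and 0.971), and Xcl1 had means of 49.2, 2375 and 6589 CPM. For Zc3h12d they were Vrk2, H2-Q4 and Pcgf5 (r 0.96, 0.955 and 0.953), and for Rc3h1 they were Btaf1, Dis3 and Atp2a2 (r 0.993, 0.986 and 0.982). The samples fall into 3 groups, so a high r says mainly that 2 genes have the same order of group levels.

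Genes of the machinery that the decay factors call on changed in both directions. Of 17 genes of deadenylation, 5 were higher and 5 lower in YFP- than in unstimulated cells, 2 higher and 7 lower in YFP+ than in unstimulated cells, and 1 higher and 3 lower in YFP+ than in YFP- cells. The shares called, 58.8%, 52.9% and 23.5%, are near the 51.1%, 60.8% and 21.8% of all tested genes. Btg1, which links CCR4-NOT to transcripts and restrains proliferation, had the largest rise in YFP- cells, from 154.5 to 371.4 CPM (log2 difference 1.25, SE 0.16, limma adjusted p = 3.4e-05). Cnot6l, a catalytic subunit of CCR4-NOT, had the largest fall in YFP+ cells, with a mean of 52.2 CPM in unstimulated cells, 40.4 in YFP- and 22.01 in YFP+ cells (log2 difference from unstimulated -1.28, SE 0.16, limma adjusted p = 1.1e-05). Cnot3, another subunit, had the list's largest fall for YFP- against unstimulated cells (log2 difference -0.66, limma adjusted p = 0.0048), and was at -0.79 for YFP+ (limma adjusted p = 0.00093). The list's largest rise for YFP+ against unstimulated cells was that of Cnot11 (0.96, limma adjusted p = 0.00039). Cnot11 and Cnot6l also had the largest rise and fall between YFP+ and YFP- cells, with log2 differences of 0.55 (limma adjusted p = 0.042) for the first and -0.91 (limma adjusted p = 0.0013) for the second.

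Of 9 genes of decapping and 5′ to 3′ decay, 3 were higher and none lower in YFP- than in unstimulated cells, 2 were higher and 1 lower in YFP+ than in unstimulated cells, and none was higher and 2 lower in YFP+ than in YFP- cells. These are 33.3%, 33.3% and 22.2% of the list, below the 51.1% and 60.8% and near the 21.8% of all genes. The decapping activator Dcp1a rose most in both stimulated groups (log2 difference 0.70 and 0.58, limma adjusted p = 0.0036 and 0.0085). The exonuclease Xrn1 had the largest fall in YFP+ cells, to 9.32 CPM from 18.7 in unstimulated and 14.9 in YFP- cells (log2 difference -1.02 and -0.69, limma adjusted p = 0.00013 and 0.0097). Of 8 other proteins that bind AU-rich elements or stem-loops, 1 was higher and 2 lower in YFP- and 4 higher and 2 lower in YFP+ than in unstimulated cells, or 37.5% and 75% beside 51.1% and 60.8% of all genes. Tia1, a translational repressor, had the list's largest rise in both (0.72 and 0.57, limma adjusted p = 0.012 and 0.033). The list's largest fall was that of Khsrp in YFP- (-0.77, limma adjusted p = 0.0029) and of Hnrnpd in YFP+ cells (-0.52, limma adjusted p = 0.047). Both were lower in the other stimulated group too, Khsrp at -0.51 in YFP+ and Hnrnpd at -0.64 in YFP- cells (limma adjusted p = 0.023 and 0.021). None of the 8 was called between YFP+ and YFP- cells, where 21.8% of all genes were.

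Of 14 regulators and partners of the decay factors, 5 were higher and 2 lower in YFP- and 3 higher and 4 lower in YFP+ than in unstimulated cells, and none was higher and 3 were lower in YFP+ than in YFP- cells. At 7, 7 and 3 of 14, the shares are close to or below those of all genes (51.1%, 60.8% and 21.8%). Mapkapk3, a kinase of the p38 pathway whose relative MK2 phosphorylates Zfp36, rose most in both stimulated groups, from 28.6 CPM to 145.5 in YFP- and 139.2 in YFP+ cells (log2 difference 2.35 and 2.21, limma adjusted p = 7.2e-06 and 5.1e-06). Dusp1, a phosphatase that switches p38 off, was at 11.6 CPM in unstimulated cells, 10.99 in YFP- and 4.096 in YFP+ cells, and had the largest fall in YFP+ cells against both groups (-1.66 and -1.48, limma adjusted p = 0.00077 and 0.0069). N4bp1, an RNase related to the Regnases, had the list's largest fall for YFP- against unstimulated cells (-0.66, limma adjusted p = 0.0028). It was lower still in YFP+ cells (-1.21 against unstimulated, limma adjusted p = 1.2e-05).

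Of 22 transcripts described elsewhere as targets of these families, 18 were tested (Il3, Il6, Il10 and Ptgs2 did not pass the filter). In YFP- cells 13 were higher and 4 lower than in unstimulated cells, in YFP+ cells 12 were higher and 5 lower, and in YFP+ against YFP- cells 6 were higher and 4 lower. That is 94.4%, 94.4% and 55.6%, beside 51.1%, 60.8% and 21.8% of all genes, but Csf2, Ctla4, Tnfrsf4 and Lif were above the filter's minimum in no sample of some group. The list's median log2 difference was 2.42, 2.09 and 0.16, beside 0.14, -0.03 and -0.19 over all genes. Csf2 rose most in both stimulated groups, from 0.061 CPM to 13.8 and 22.1, and its fitted log2 differences of 8.37 and 9.01 depend on the small count added because unstimulated libraries held 0 to 6 reads. Ctla4, an inhibitory receptor, had the largest fall in each comparison, from 10.6 CPM in unstimulated to 1.97 in YFP- and 0.601 in YFP+ cells. Its log2 difference for YFP- against unstimulated was -2.42 (limma adjusted p = 8.2e-05). For YFP+ it was -4.10 against unstimulated and -1.68 against YFP-, given without a p because no YFP+ sample was above the filter's minimum. Ifng had the largest rise between YFP+ and YFP- cells (2.86, SE 0.13). It is given without a p because these groups were sorted on the reporter of this gene. The list was chosen with earlier results of these data known, and Ifng is among its 6 genes higher in YFP+ than in YFP- cells. Its shares beside those of all genes are therefore a description and not a test. The list mixes targets of different families and says nothing of transcript stability, which was not measured.

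**Figure D4:**
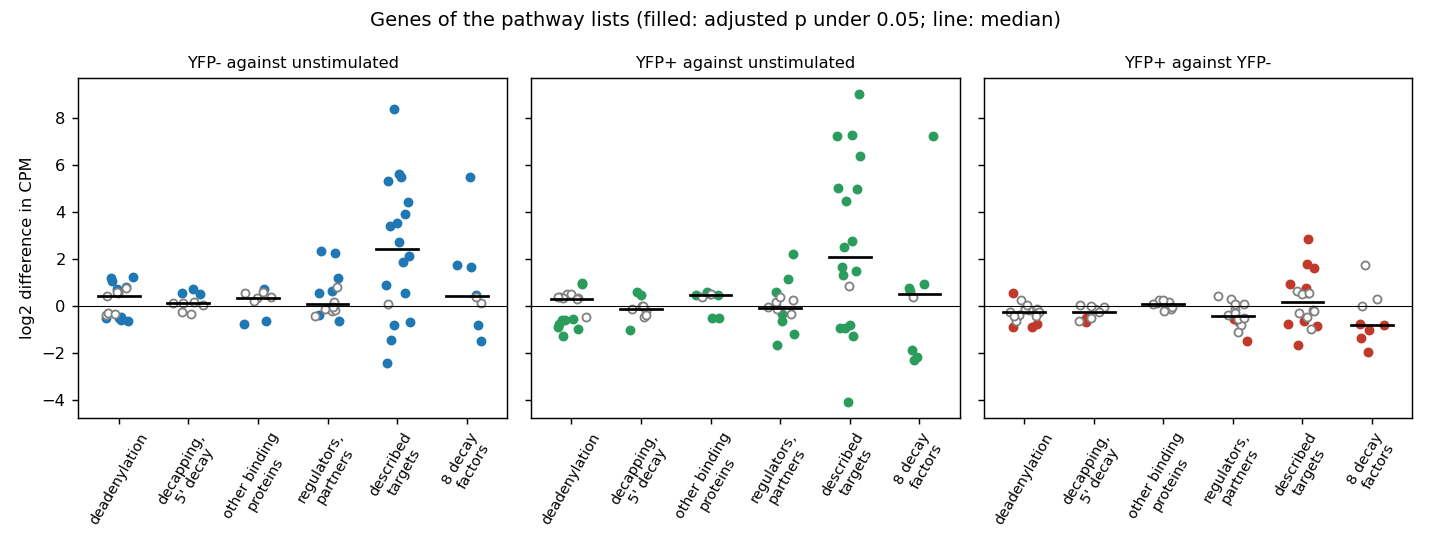
Log2 difference in CPM of each tested gene of the 5 pathway lists and of the 8 decay factors, 1 panel per comparison. Filled points have an adjusted p under 0.05, open points do not, and lines are medians. The described targets reach 9.01 and have medians of 2.42 and 2.09 against unstimulated cells, while the deadenylation, decapping, binding protein and regulator lists stay between -1.66 and 2.35.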

How the data were processed

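The deposited table gives moderated log2 CPM per gene and sample, and its values fit whole read counts with a small count added before the logarithm. Per the submitters' processing notes the tools named are bcl2fastq, STAR 2.7.9a and featureCounts 2.0.3 of Subread, with the build GRCm38. Filters, strand setting and counting of overlapping genes are not given in the sources used here. The deposited log2 values were unlogged, and 100% came out within 0.1 reads of whole reads, which gave the library totals and CPM. After 287 repeated lines were dropped, 55487 features were left, and 99.4% matched GENCODE M21. Counting error sets the precision of low genes.

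Differences were tested with limma 3.58.1 in R 4.3.3 (lmFit, contrasts and eBayes with trend) on the deposited log2 CPM of all 12 samples, for genes above 0 in at least 4 samples, with Benjamini-Hochberg adjustment over 12364 genes and a threshold of 0.05. The fit was tested on simulated data. The 8 members and all lists were chosen with earlier results of these data known. Named beside the members are the called genes with the largest rise and fall of each list, the 3 genes most like each called member, and Ifng. The alternatives were the replicate block, the compared samples alone, other filters, priors and scalings, no trend, and leaving out each replicate label. Totals without ribosomal RNA-like features, voom weights and leaving out the YFP+ sample m3 were chosen after seeing the data.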

Additional observations from a re-analysis of the deposited data

Results flagged for a closer look

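Of 24 sets of 4 values (8 genes in 3 groups), 1 had a sample far from the other samples, where chance would give 1.2. It was Zc3h12c in unstimulated cells: the gap of sample m4 (log2 CPM -3.25, 3 reads) to its nearest neighbour, divided by the whole range, was 1, above the limit of 0.829. The other samples had no read and share the lowest value the table can hold there, -6.35.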

How the results depend on the processing

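Over 24 differences (8 genes, 3 comparisons) and 16 alternatives, 341 of 378 values kept their direction and their side of the threshold, 20 missed it, 9 newly passed and 8 changed sign. For 16 of the 24 differences no alternative changed either. Sign changes were in differences not called. Zc3h12d in YFP- against unstimulated cells became -0.0339 when samples were centred on their medians, -0.0384 with the trimmed mean, -0.0761 without ribosomal RNA-like features in the totals and -0.00587 without replicate m2 (up to 0.258 without m4). Rc3h2 in YFP+ against YFP- cells became 0.25, 0.26 and 0.20 with centring, quantile normalization and the trimmed mean, and ran from -0.135 without replicate m3 to 0.15 without replicate f2. A filter of log2 CPM above 2 gave no value for Zc3h12c and Zc3h12d.

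With the replicate block, 6, 6 and 6 genes were called, against 6, 7 and 5 without it. Of all tested genes 54.0%, 62.9% and 25.1% were called with the block, against 51.1%, 60.8% and 21.8% without it. With the block Zc3h12a was not called in YFP+ against unstimulated cells (limma adjusted p = 0.056). Zc3h12c was then called in YFP+ against YFP- cells, a difference given only as a description, and no other call changed. The labels do not say that a shared label marks a shared mouse. Same-labelled deviations correlated by more than 0.1 for 1, 2 and 3 of 4 labels in the 3 comparisons (mean r 0.03, 0.14 and 0.24), so pairing was not shown for every label, and for YFP+ against YFP- 3 of 4 labels went together. For 1, 2 and 3 of 4 labels the deviations were most like those of the same label. Depth limits Zc3h12c and Zc3h12d. The cause of these changes was not tested.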
